A study of Mus musculus with 52 samples.

Results

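The sites described here are peaks of the insulator protein CTCF that were listed in wild-type (wt) mouse embryonic fibroblasts (MEFs) and had no counterpart in either of the SmcHD1-deficient genotypes. They were chosen as wt peaks on chromosomes 1 to 19 that shared not even 1 bp with a CTCF peak of the germline null mutant (mut) or of the somatic knockout (somKO). The rule selected 3462 of 58231 autosomal wt peaks. Absence from these lists is therefore what defined the sites, and it is described below without being tested.

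CTCF is a zinc finger protein that binds an asymmetric DNA motif. Cohesin, a ring-shaped complex that contains Rad21, extrudes chromatin loops and stops where CTCF faces it, so that CTCF sites often carry Rad21 and mark boundaries of contact domains. SmcHD1 is a non-canonical SMC family protein enriched on the inactive X chromosome, and its known autosomal targets include imprinted clusters. The SmcHD1 list of wt cells held 5154 peaks on autosomes.

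The series holds 52 libraries from clonal female MEFs of E9.5 F2 embryos of an FVB by castaneus cross, whose autosomes are a mosaic of both strains. The CTCF lists came from 3 merged wt libraries (clone Wt2A1), 3 merged mut libraries (clone Mut5A6, null for SmcHD1 through the germline MommeD1 allele, spelled MomeD1 in the labels) and 4 merged somKO libraries (CRISPR clones A3-3 and D4), and the Rad21 lists from 2, 2 and 4. According to the study's methods the knockouts were made in a different wt clone and are triploid, so that genotype and clone cannot be told apart in these lists. Each genotype had 1 list per antibody, without replicate error, and the lists give no read counts, so that the depth is unknown. Shares below carry 95% Wilson intervals, which cover counting error only, and shares are called higher or lower only where such intervals did not overlap.

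Of the autosomal wt CTCF peaks, 19.6% had no overlapping mut peak, 7.72% had no overlapping somKO peak and 5.95% had neither. The 3462 sites made up 30.3% of the 11414 sites missing in mut and 77.0% of the 4494 sites missing in somKO, and both of those counts rest on the same wt list. Counted over all chromosomes, the somKO list was the longest CTCF list (69736 peaks), followed by wt (60204) and mut (57798).

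A minority of the missing sites carried a match to the CTCF motif, and some of those lay in a repeat with nearly the same letters each time; examples are printed here because values further below turn on them. All are on mm10 (GRCm38), taken from the RefSeq sequence of that build and written 5′ to 3′ on the strand of the motif. Capitals mark the best 20-base match to a CTCF matrix, which was built from the 1000 highest-scoring sites present in both deficient genotypes and whose most frequent letters were GCGGCCAGCAGGGGGCGCTG. First are 2 of the strongest retained sites, assigned to Tbx3 at chr5:119711544-119711603 with a score of 73961 and to Arpc3 at chr5:122401443-122401502 with a score of 55432.
Tbx3: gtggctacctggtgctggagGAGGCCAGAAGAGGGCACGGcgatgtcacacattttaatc
Arpc3: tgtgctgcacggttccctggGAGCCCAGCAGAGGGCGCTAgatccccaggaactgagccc

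The next examples are missing sites with less than 50% of their bases in repeats. They were taken from the highest-scoring missing sites that passed the matrix threshold given further below, so the choice itself ensured a match. The strongest missing site, in Anapc7 with a score of 661, did not pass it, and 8 of the 15 highest-scoring missing sites did. All 4 examples are on the distal part of chromosome 14, described further below, where the parts of copy number and strain origin were not tested. A site outside genes is named by the closest start of a protein-coding gene, which can be far away. These 4 lie 446 kb from Prr30 at chr14:100754025-100754084, in an intron of Dct at chr14:118027733-118027792, in an intron of Dach1 at chr14:97830038-97830097 and closest to Oxgr1 at chr14:120076361-120076420. Their matches scored 13.3, 15.0, 13.7 and 13.8 log2 units against the matrix, whereas those of Tbx3 and Arpc3 scored 18.3 and 17.9.
Prr30: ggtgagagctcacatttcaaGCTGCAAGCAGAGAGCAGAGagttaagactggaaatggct
Dct: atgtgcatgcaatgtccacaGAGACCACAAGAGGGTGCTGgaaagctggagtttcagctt
Dach1: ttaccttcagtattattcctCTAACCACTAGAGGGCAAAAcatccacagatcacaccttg
Oxgr1: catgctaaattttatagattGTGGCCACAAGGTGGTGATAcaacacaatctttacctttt

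The last examples are missing sites on different chromosomes that carried nearly the same letters. They lie in an intron of Sorbs3 at chr14:70190189-70190278, in Desi1 at chr15:82026638-82026727, closest to Mlf2 at chr6:124939023-124939112, closest to Swap70 at chr7:110206594-110206683 and in Taok1 at chr11:77547430-77547519.
Sorbs3: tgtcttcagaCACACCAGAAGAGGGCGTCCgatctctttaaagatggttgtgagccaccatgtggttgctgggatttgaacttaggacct
Desi1: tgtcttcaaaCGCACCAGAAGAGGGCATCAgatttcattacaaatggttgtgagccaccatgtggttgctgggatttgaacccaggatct
Mlf2: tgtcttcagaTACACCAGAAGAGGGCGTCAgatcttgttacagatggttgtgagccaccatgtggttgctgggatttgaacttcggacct
Swap70: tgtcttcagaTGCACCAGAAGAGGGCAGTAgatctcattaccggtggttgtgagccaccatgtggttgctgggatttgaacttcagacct
Taok1: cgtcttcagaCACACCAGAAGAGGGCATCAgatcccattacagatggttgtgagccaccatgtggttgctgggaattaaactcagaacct

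The missing sites were weak peaks in wt cells. The deposited score, a whole number that increases with the significance of a peak, had a median of 46.0 over the missing sites and 932 over the 45785 sites present in both deficient genotypes. The median missing site ranked at the 7.09 percentile of wt scores, and the strongest had a score of 661. When wt peaks were divided into deciles by score, 2158 missing sites were in the lowest decile (scores 13 to 63), 888 in the second (64 to 137) and 318 in the third (138 to 218), together 97.2% of the set. The share of peaks missing in both was 36.7% in the lowest decile (95% interval 35.5 to 38.0), 15.0% in the second (14.1 to 16.0), 5.60% in the third (5.03 to 6.23) and 1.46% in the fourth (1.18 to 1.80). There were 11 missing sites in the fifth decile, 2 in the sixth and 0 above it, which in the highest decile of 5809 peaks allows a share of up to 0.0661%. The lists rest on 3, 3 and 4 merged libraries of unknown depth, and the part of depth in the absence of these low-scoring peaks was not tested.

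**Figure D1:**
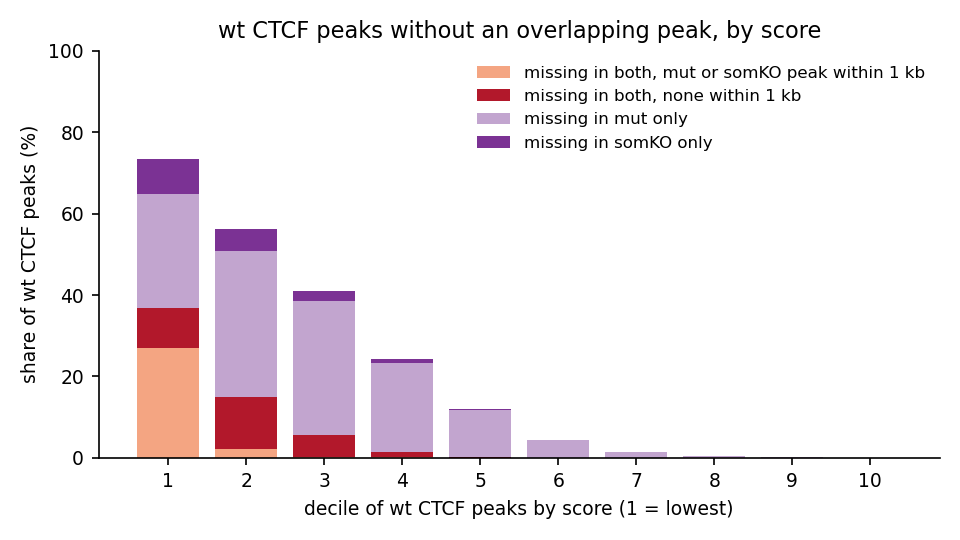
Share of autosomal wt CTCF peaks without an overlapping peak in the deficient genotypes (vertical axis, percent) for each decile of wt peaks by score (horizontal axis, 1 is lowest). Stacked bars separate sites missing in both, with or without a mut or somKO peak within 1 kb, from sites missing in mut only or in somKO only; the sites missing in both went from 36.7% of the lowest decile to 0.0344% of the sixth.

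The missing sites fell into 2 kinds by their distance from the CTCF peaks that remained. For 1739 of them the nearest mut or somKO peak was less than 1 kb away, edge to edge, with a median gap of 0.315 kb; these are called near sites. The other 1723 had no mut or somKO peak within 1 kb, with a median gap of 8.03 kb and a largest gap of 792 kb; these are called isolated sites. Near sites mostly had the lowest scores, with 1591 of 1739 in the lowest decile, whereas isolated sites had 567 in the lowest decile, 762 in the second and 301 in the third. The median score was 30.0 for near sites and 88.0 for isolated sites. At the edge of the 1 bp rule, 29 missing sites lay less than 10 bp from a mut or somKO peak, with a median score of 26.0, and 37 wt peaks were kept out of the set by an overlap of 10 bp or less, with a median score of 30.0.

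**Figure D2:**
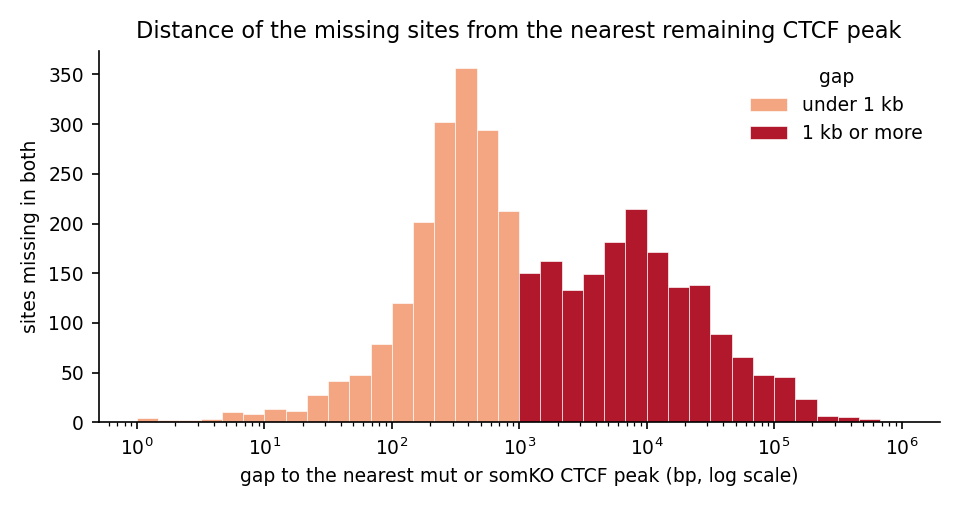
Number of sites missing in both (vertical axis) by the gap to the nearest mut or somKO CTCF peak (horizontal axis, bp, log scale). The counts have a peak below 1 kb, where the median of the near sites is 0.315 kb, and another at several kb, where the median of the isolated sites is 8.03 kb.

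Near sites lay beside strong CTCF peaks, most of which the deficient cells kept. The split into near and isolated sites largely fixes this, because a kept wt neighbour brings a mut or somKO peak with it, so the shares that follow are a description. Another wt peak lay within 1 kb of 91.5% of near sites (90.1 to 92.7), against 1.63% of isolated sites (1.13 to 2.34) and 25.1% of all wt peaks. The 1563 wt neighbours of near sites had a median score of 2173, and 91.8% of them were present in both deficient genotypes. These retained neighbours were 1014 bp wide at the median in wt, and the peaks that overlapped them were 932 bp wide in mut and 1150 bp in somKO. A low-scoring peak next to a strong one was not particular to the missing sites: in the lowest decile, 70.1% of retained sites also had another wt peak within 1 kb.

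The locus closest to Ctcfl, which encodes a germline paralogue of CTCF, held 3 near sites and 1 isolated site in a row. On chromosome 2, wt cells had strong peaks at 173080676-173082170, with a score of 5305, and at 173089430-173090874, with a score of 5966. Between them were 4 consecutive missing sites with scores of 30, 30, 26 and 26, at 173082409-173082610, 173086819-173087154, 173087527-173087723 and 173088012-173088247. The strong peaks were listed in mut with scores of 6974 and 7432 and in somKO with scores of 6023 and 5806, and none of the 4 small peaks overlapped a Rad21 peak in any genotype. The second of them, 1.49 kb from the closest somKO peak, was the isolated site. A further small wt peak between them, at 173088651-173088946 with a score of 30, was not counted as missing because the wide somKO peak reached it.

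At H19, an imprinted non-coding RNA gene whose control region binds CTCF on the maternal allele, a missing site lay inside the gene and another upstream of it. On chromosome 7 the strongest wt peak there, at 142580085-142582414 with a score of 1980, was met by 2 peaks in mut, with scores of 433 and 627, and by 1 in somKO, with a score of 2161. A missing site with a score of 26 lay upstream of it at 142583101-142583479, and a missing site with a score of 94 lay in the H19 gene at 142576981-142577339. The site in H19 overlapped a Rad21 peak with a score of 71 in wt, none in mut and a peak with a score of 441 in somKO. A further wt peak between them, at 142579164-142579434 with a score of 334, overlapped a somKO peak with a score of 328 and no mut peak. The strongest peak of the locus was listed in each genotype.

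The CTCF core motif was less frequent in near than in isolated sites, which also differed in score. The core was searched as CCNNNAGNNGGC on both strands of each whole peak. It was found in 29.6% of the missing sites (28.1 to 31.1), against 57.4% of retained sites (56.9 to 57.8) and 3.81% of windows of the same length (3.21 to 4.53) centred 5 kb away from the missing sites and free of wt peaks. Over all wt peaks, which are wider, such windows held it in 8.71%. Among near sites the share was 11.3% (9.92 to 12.9), and among isolated sites it was 48.0% (45.6 to 50.4). In the lowest decile these shares were 8.49% (7.21 to 9.96) and 43.6% (39.5 to 47.7). In the second decile, with 126 near sites, the intervals overlapped, at 44.4% (36.1 to 53.2) and 54.5% (50.9 to 58.0). The windows beside them held it in 4.43% (3.52 to 5.55) for near sites and 3.22% (2.47 to 4.19) for isolated sites. The match to the matrix gave the same order, with 9.49% of near sites and 46.3% of isolated sites above a threshold that 5% of flanking windows passed.

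Since the score and the presence of a neighbour both go with the motif, isolated sites were set beside retained sites of the same score decile that had no other wt peak within 1 kb, called lone retained sites. The core was found in 43.6% of isolated sites (39.5 to 47.7) and 41.4% of lone retained sites (37 to 45.9) of the lowest decile. In the second decile the shares were 54.5% (50.9 to 58.0) and 52.7% (50.4 to 54.9), so that the intervals overlapped in both deciles. In the third decile the share was lower in isolated sites, at 43.9% (38.4 to 49.5) against 56.0% (54.1 to 57.8).

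**Figure D3:**
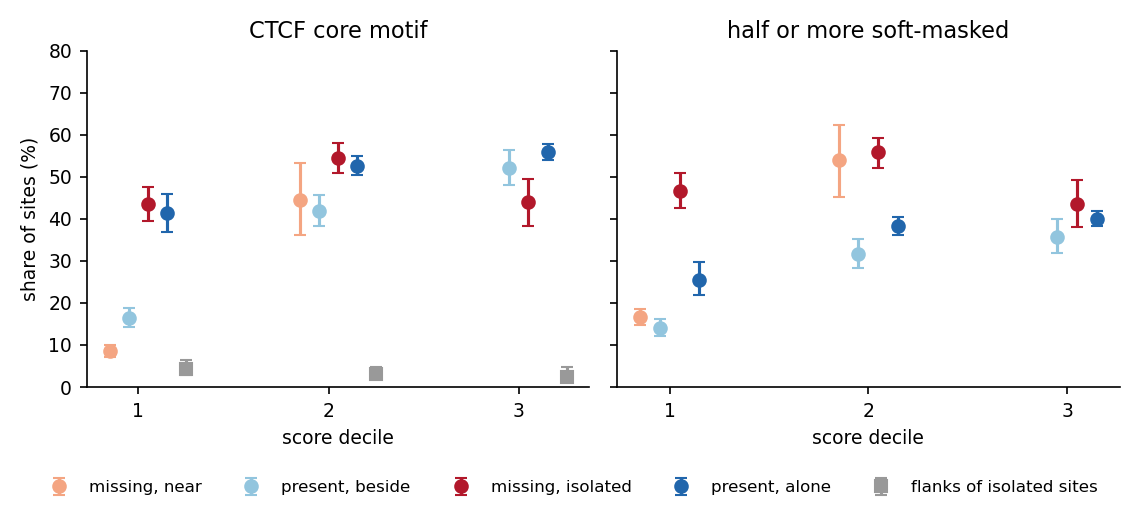
Share of sites (vertical axes, percent) with the CTCF core motif, left, and with at least 50% of their bases soft-masked as repeats, right, in the 3 lowest score deciles (horizontal axes). Points are near and isolated missing sites, retained sites beside another wt peak or alone, and windows beside isolated sites, with 95% Wilson intervals (groups under 100 sites are left out); isolated sites held the motif at 43.6% in the lowest decile against 8.49% for near sites.

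Isolated sites were often in repeats. At least 50% of the bases were soft-masked as repeat sequence in 49.5% of isolated sites (47.1 to 51.9), 19.5% of near sites (17.7 to 21.4) and 24.3% of all wt peaks. Near sites had a share of 16.6% (14.8 to 18.5) in the lowest decile. In the second decile it was 54.0% (45.3 to 62.4), which overlapped the share of isolated sites there. Against lone retained sites, the share was higher in isolated sites of the lowest decile, at 46.7% (42.7 to 50.9) against 25.5% (21.8 to 29.7), and of the second, at 55.8% (52.2 to 59.3) against 38.3% (36.1 to 40.5). In the third decile the intervals overlapped, at 43.5% (38.0 to 49.2) and 40.0% (38.2 to 41.8). Sites missing in mut only, alone or not, were in repeats less often than isolated sites in the lowest decile, at 28.0% (25.9 to 30.3). Their share was 57.8% (55.7 to 59.9) in the second decile, where it overlapped that of isolated sites. In the third decile it was higher than in isolated sites, at 57.5% (55.2 to 59.7). The core motif was found in 72.9% of the mostly soft-masked isolated sites (69.8 to 75.8) and in 23.6% of the others (20.9 to 26.5). Mostly soft-masked lone retained sites held it at 81.0% (80.1 to 81.9), so that a high motif share in repeats was not particular to the missing sites.

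The most frequent 20-base word in isolated sites was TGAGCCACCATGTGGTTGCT, read on both strands, and it stands downstream of the motif in the Sorbs3, Desi1, Mlf2, Swap70 and Taok1 sequences printed above. It was found in 324 of the 1723 isolated sites, a share of 18.8% (17.0 to 20.7), against 1.10% of the windows beside them (0.707 to 1.72) and 8.72% of all wt peaks. The word occurs at 43603 places on the autosomes, so that it marks a dispersed repeat, and 98.5% of the 393 missing sites with the word were mostly soft-masked. The repeat family was not looked up; as background, short interspersed repeats of the rodent B2 family are known to have spread CTCF motifs through the genome. Since the word was picked from the isolated sites themselves, its share in them is a description. In the second score decile it was in 22.0% of isolated sites (19.2 to 25.1) and 16.0% of lone retained sites (14.4 to 17.7), and sites missing in mut only held it in 23.9% (22.1 to 25.8). The intervals of isolated and lone retained sites overlapped in the lowest decile, at 18.5% (15.5 to 21.9) and 13.5% (10.7 to 16.9), and in the third, at 13.6% (10.2 to 18.0) and 13.4% (12.2 to 14.7).

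Promoters were uncommon among the missing sites. The midpoint lay within 1 kb of an annotated gene start in 250 of the 3462 sites, or 7.22% (6.41 to 8.13), against 13.4% of retained sites (13.1 to 13.7). It was 6.20% (5.69 to 6.75) for sites missing in mut only and 18.7% (16.4 to 21.2) for sites missing in somKO only. A low promoter share was thus not particular to sites missing in both. Exons held 6.93%, introns 46.0% and intergenic sequence 39.8% (38.2 to 41.5), against 36.4% intergenic for retained sites (35.9 to 36.8). With the score taken into account by 50 equal bins, 450 missing sites would be placed at promoters and 250 were observed, a ratio of 0.56, whereas the ratio was 0.97 for exons, 1.07 for introns and 1.08 for intergenic sites.

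Among weak peaks that stood alone, missing sites were also less often at promoters than retained sites. In the lowest decile, 42.5% of lone retained sites were at promoters (38.1 to 47.0), against 11.3% of isolated missing sites (8.94 to 14.2). In the second decile the shares were 22.5% (20.7 to 24.5) and 4.72% (3.43 to 6.47). Sites missing in mut only, alone or not, were at promoters at 8.06% (6.84 to 9.47) in the lowest decile and 6.72% (5.73 to 7.87) in the second. The lone retained sites of the lowest decile also had more C and G, with a median GC content of 56.8% against 45.1%, and more CpG, with a median ratio of observed to expected CpG of 0.461 against 0.213 around the midpoint.

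At protein-coding promoters there were 132 missing sites, and the strongest of them had moderate scores. Themis3 at chr17:66595491-66595734 had a score of 260, Slitrk6, a neuronal transmembrane protein gene, at chr14:110755137-110755368 had 225, and the olfactory receptor gene Olfr555 at chr7:102657800-102658018 had 225. Zfp426, a zinc finger gene, followed with 213, the chemokine gene Ccl9 with 176, Ms4a4a with 156 and Tmem9 with 149. The last 3 by the rule were Clip3 with 137, Ddr2, a collagen receptor, with 130, and Men1, which encodes the tumour suppressor menin, with 130. The promoter site of Olfr555 had the core motif, and 92.7% of its bases were soft-masked. Ddr2 was one of the promoter sites that kept cohesin, with Rad21 scores of 293 in wt, 316 in mut and 555 in somKO, whereas the Slitrk6 promoter had a Rad21 score of 138 in wt and no Rad21 peak in mut or somKO.

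The genes that held missing sites were many and each held few. There were 1783 missing sites inside protein-coding genes, in 1540 genes, of which 1339 held 1 and 38 held at least 3. Agap1, Dysf, the muscle membrane repair gene, Pde4d, a cAMP phosphodiesterase, and the long gene model Gm20388 held 4 each, out of 27, 15, 30 and 151 wt sites.

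The gene lists were read within 10 kb of each gene body against the background share of 5.95%. For the CTCF and cohesin machinery, 5 of 63 wt sites were missing, or 7.94% (3.44 to 17.3), at Ctcf, Smc3, Esco1, Esco2 and Pds5b. The site beside Smc3, a cohesin subunit gene, had the highest score of the 5, at 160, with Rad21 scores of 192 in wt, none in mut and 220 in somKO. The site inside Ctcf had a score of 21 and lay 0.257 kb from a somKO peak. For fibroblast matrix and identity genes, 5 of 86 were missing, or 5.81% (2.51 to 12.9), at Fn1 (fibronectin), Col1a1 and Col1a2 (type I collagen), Pdgfra and S100a4, with scores from 17 to 67. For imprinted genes, 8 of 89 were missing, or 8.99% (4.63 to 16.7), at Commd1, Trappc9, Airn, Usp29 and H19. For Hox genes it was 2 of 38, or 5.26% (1.46 to 17.3), and for clustered protocadherin genes 0 of 54, which allows a share of up to 6.64%. Each of these intervals held the background share, so that no list stood apart.

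Cohesin was found at fewer of the missing sites than of retained sites, in each genotype. A Rad21 peak overlapped 775 of the 3462 sites in wt, 508 in mut and 1339 in somKO, shares of 22.4% (21 to 23.8), 14.7% (13.5 to 15.9) and 38.7% (37.1 to 40.3). At retained sites the shares were 76.7%, 74.7% and 87.2%. The somKO list is the longest of the Rad21 lists, with 89974 peaks against 67655 in wt and 66031 in mut, and the higher share in somKO was seen at retained sites as well. A Rad21 peak in at least 1 of the lists was found at 42.4% of the missing sites (40.7 to 44.0) and 89.1% of retained sites (88.8 to 89.4).

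Within a score decile, isolated sites differed from lone retained sites most in the mut list. In the lowest decile, 16.0% of isolated sites had Rad21 in wt (13.3 to 19.3) and 10.4% in mut (8.15 to 13.2), against 56.4% (51.9 to 60.9) and 61.4% (56.9 to 65.7) of lone retained sites. In the second decile the shares were 19.2% (16.5 to 22.1) in wt and 8.66% (6.87 to 10.9) in mut, against 37% (34.9 to 39.2) and 42.4% (40.2 to 44.6). In the third decile the wt shares overlapped, at 35.5% (30.4 to 41.1) for isolated and 37.4% (35.6 to 39.2) for lone retained sites, but the mut shares were 10.6% (7.63 to 14.6) and 38.9% (37.1 to 40.7). In somKO the third decile gave 45.5% (40.0 to 51.2) and 58.7% (56.8 to 60.5). In the third decile the isolated sites were thus below lone retained sites in mut and somKO, and in wt the intervals did not separate them.

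**Figure D4:**
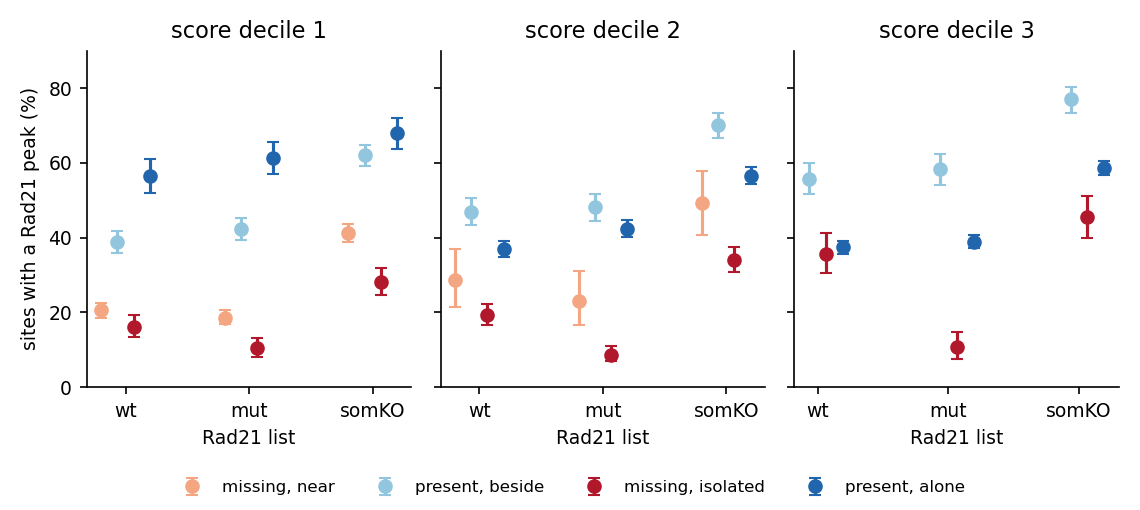
Share of sites overlapped by a Rad21 peak (vertical axes, percent) in the wt, mut and somKO lists (horizontal axes), in the lowest 3 score deciles from left to right. Points are near and isolated missing sites and retained sites beside another wt peak or alone, with 95% Wilson intervals (groups under 100 sites are left out); in the third decile isolated sites went from 35.5% in wt to 10.6% in mut, and lone retained sites from 37.4% to 38.9%.

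Rad21 is called kept where a mut or somKO Rad21 peak overlapped the CTCF interval of a site. This was read at the 775 missing sites that had a Rad21 peak in wt. Rad21 was kept in mut at 45.9% (42.5 to 49.5) and in somKO at 88.0% (85.5 to 90.1) of them, and 332 sites kept it in somKO only, 6 in mut only and 87 in neither. Put as losses, 54.1% were missing in mut and 12% in somKO. Of all autosomal wt Rad21 peaks, 28.3% were missing in mut, 7.27% in somKO and 5.88% in both. The latter shares were counted over whole Rad21 peaks, which are wider than the CTCF intervals. A wt Rad21 peak met by a mut or somKO peak only outside the CTCF interval counts as lost in the former alone, so the measures are unlike. Isolated sites kept Rad21 in mut at 32.4% (28.0 to 37.2) and near sites at 60.2% (55.2 to 65.0). Within the third decile it was kept in mut at 24.3% of isolated sites (17.2 to 33.2) and 73.1% of lone retained sites (70.4 to 75.7), but sites missing in mut only were like the isolated sites, at 30.2% (26.9 to 33.8), so that this was not particular to sites missing in both. In somKO, where their CTCF peak was not listed, 85.4% (81.6 to 88.6) of the 398 isolated sites with Rad21 in wt kept it. Sites missing in somKO only were like them, at 86.2% (82.2 to 89.4). Within the third decile Rad21 was kept in somKO at 80.4% of isolated sites (71.9 to 86.8), lower than the 94.2% of lone retained sites (92.6 to 95.5). The Rad21 peaks at near sites were strong, with a median percentile of 81.7 in the wt Rad21 list, against 41.1 at isolated sites. Rad21 peaks in wt were 581 bp wide at the median, against 261 bp for the CTCF peaks of near sites. Chromatin for Rad21 was fixed with EGS as well as formaldehyde and that for CTCF with formaldehyde alone, so the lists also differ in more than the antibody.

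At 10 sites, the highest-scoring of their kind and all below the wt median score of 548, CTCF and Rad21 were both listed in wt and neither in mut or somKO. The first was in an intron of Dach1, a developmental transcription cofactor gene, at chr14:97829781-97830238, with a CTCF score of 433 and a Rad21 score of 110. Klf5, a transcription factor gene, was the nearest gene of 2 more, at chr14:99764074-99764332 (CTCF 334, Rad21 51) and chr14:99632428-99632665 (CTCF 263, Rad21 96). The glypican gene Gpc5 was nearest to a site with a CTCF score of 334 and a Rad21 score of 163, and the Slitrk6 promoter had 225 and 138. The sites named for Dach1, Klf5, Gpc5 and Slitrk6 are all on distal chromosome 14, described further below. Copy number and strain origin cannot be told apart there from a difference in binding. The others were closest to Igfbp7 (306 and 83), in Sgip1 (297 and 189), 1004 kb from the cadherin gene Cdh6 (287 and 99), in Med13l, a Mediator subunit gene (266 and 55), and in Bmp2k (246 and 25). These wt Rad21 scores were low beside the median of 145 in the wt Rad21 list at all but Gpc5 and Sgip1.

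A SmcHD1 peak of wt cells overlapped 32 of the 3462, or 0.924% (0.656 to 1.30), against 2.18% of retained sites (2.05 to 2.32). In the lowest decile it was 28 of 2158, or 1.30% (0.899 to 1.87), against 3.85% (3.00 to 4.93), and of the 318 missing sites in the third decile 0 had one, which allows up to 1.19% and overlaps the 1.52% of retained sites (1.16 to 1.99). The share at missing sites depended on how they were defined, at 2.09% (1.80 to 2.43) when an overlap of 50% of both peaks was required and 1.66% (1.34 to 2.05) with midpoints within 500 bp. Only 1 of the 32, closest to Atp11b, also overlapped a peak of the mut SmcHD1 list, which gives the background of the antibody, so that the others had no SmcHD1 peak in null cells.

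The 32 sites had CTCF scores from 13 to 78, and 12 of them were on chromosome 5, which also held 32.4% of the autosomal SmcHD1 peaks. The highest CTCF score, 78, was in an intron of Ppp2r3d, with a SmcHD1 score of 86 and Rad21 scores of 99 in wt, 211 in mut and 120 in somKO. Next were sites closest to Galnt17 (CTCF 77, SmcHD1 64, with no Rad21 in wt and scores of 10407 in mut and 13720 in somKO), closest to Gm6351 (69 and 21) and at chr7:60489196-60489804 (64 and 31), 349 kb from the start of the imprinted gene Snrpn. The site closest to Galnt17 was a near site without the core motif, 0.137 kb from a mut and 0.128 kb from a somKO CTCF peak. A Rad21 score is that of the whole peak, which need share only 1 bp with the site. The multicopy Speer4 genes gave 52 at Speer4e, with a SmcHD1 score of 124, and 51 closest to Speer4d, with 94. The rest by the rule were closest to Gm21190 (61 and 58), in Stra6l (57 and 28), in Gigyf1 (57 and 21) and in Dok5 (46 and 45). Nearest to Hrh1, a histamine receptor gene, 3 missing sites at chr6:114504687-114504981, chr6:114507044-114507346 and chr6:114518748-114519032 had the strong SmcHD1 scores of 353, 574 and 774 and the low CTCF scores of 20, 30 and 13. Speer4 genes and other multicopy families share reads between copies, so that their peaks are uncertain.

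The missing sites were spread over all autosomes. The share of wt peaks missing in both ranged from 3.13% on chromosome 10 (2.55 to 3.84) to 9.33% on chromosome 14 (8.19 to 10.6), with a mean of 5.82% and an SD of 1.60 over 19 chromosomes. With the score taken into account, the observed number was 1.76 times the expected number on chromosome 14, 0.57 times on chromosome 8 and 0.59 times on chromosome 10, and between 0.81 and 1.29 times on the other chromosomes. Over 485 windows of 5 Mb with at least 20 wt peaks, the median share was 5.56% and 12 windows were over 15%, of which 8 were on chromosome 14.

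The excess on chromosome 14 was on its distal part. Beyond 64 Mb, 143 of 723 wt peaks were missing in both, or 19.8% (17.0 to 22.8), with 26.7 expected from their scores. Up to 64 Mb it was 63 of 1484, or 4.25% (3.33 to 5.39), with 90.6 expected. Beyond 64 Mb, 54.6% of the wt peaks were missing in mut and 20.9% in somKO, against 11.4% and 6.67% up to 64 Mb. The boundary was known from earlier results on these lists. The top windows were 95 to 100 Mb with 14 of 31 peaks missing, or 45.2% (29.2 to 62.2), 100 to 105 Mb with 16 of 60, 105 to 110 Mb with 5 of 21 and 70 to 75 Mb with 25 of 109, and among them only 55 to 60 Mb on chromosome 5, with 5 of 21, was elsewhere. The distal 143 sites were stronger than the rest, with a median score of 144 against 46.0 for the other 3319, and 115 of them were isolated. The study's methods say that chromosome copy number differed among these cells. A difference in copy number or strain origin between the clones cannot be told apart here from a difference in binding. Some values are therefore also given without this segment, and the others include it. Without it, the share missing in both on the autosomes was 5.77%, and 21.5% of the remaining isolated sites had Rad21 in wt and 10.4% in mut. Of those with Rad21 in wt, 35.0% (30.1 to 40.1) kept it in mut. The core motif was in 45.8% (39.9 to 51.9) of the remaining isolated sites of the third decile.

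**Figure D5:**
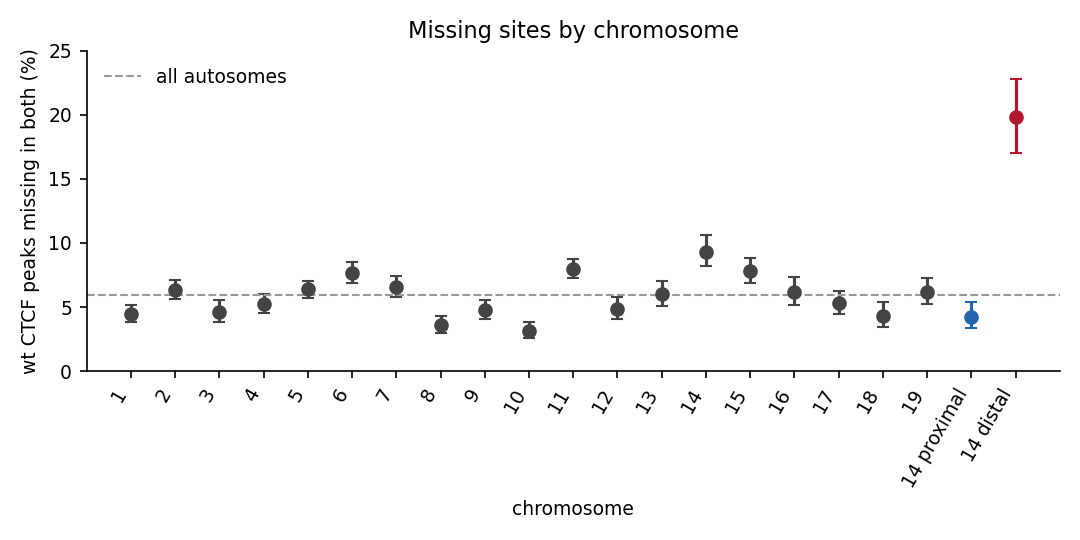
Share of wt CTCF peaks missing in both (vertical axis, percent, with 95% Wilson intervals) on each autosome (horizontal axis) and on the proximal and distal parts of chromosome 14, divided at 64 Mb; the dashed line is the share over all autosomes, 5.95%. Distal chromosome 14 is at 19.8% and no whole chromosome is above 9.33%.

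Of the 15 highest-scoring missing sites, 10 lay on distal chromosome 14. The highest of all was elsewhere, in an intron of Anapc7, a gene for a subunit of the anaphase-promoting complex, at chr5:122430014-122430381. It had a CTCF score of 661 and Rad21 scores of 416 in wt, none in mut and 115 in somKO, and the nearest CTCF peaks were 4.13 kb away in mut and 4.01 kb in somKO. The site in Sorbs3, an adaptor protein gene, followed with 592, that 446 kb from Prr30 with 527, that in Ankfy1, an endosomal trafficking gene, with 475, that in Dct, which encodes a melanin synthesis enzyme, with 464 and that in Dach1 with 433. Outside distal chromosome 14 there were also sites closest to Timd4 (373), closest to the claudin gene Cldn23 (373) and in Babam2, a DNA repair gene (362). The site in Babam2 kept cohesin in each genotype, with Rad21 scores of 236 in wt, 122 in mut and 862 in somKO. The other 6 were on distal chromosome 14, named for Rbm26 (353), Pcdh9, at a distance of 801 kb, Tpm3-rs7 and Oxgr1 (344 each), 4921530L21Rik and Klf5 (334 each). All 15 were isolated, and 6 had the core motif and 8 a matrix match. Rad21 was listed at 11 of them in wt, at 9 in somKO and at 3 in mut.

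Runs of missing sites were rare. Among runs of consecutive wt peaks that were all missing, 3109 held 1 site, 156 held 2, 7 held 3 and 5 held 4. Besides the run closest to Ctcfl, the runs of 4 were on distal chromosome 14: between Pcdh9 and 4921530L21Rik, over 1259 kb with scores of 344, 334, 108 and 315; closest to Klf5, over 464 kb with 217, 263, 234 and 334; closest to Kctd12, over 211 kb with 184, 208, 149 and 220; and closest to Rbm26, over 102 kb with 101, 122, 353 and 108. All 4 sites of the Klf5 run had Rad21 in wt, with scores of 1050, 96, 241 and 51, and in mut only the first did, with a score of 27. In somKO the first and the third had Rad21, with scores of 555 and 153. The nearest wt peak of a missing site was itself missing in 4.79% (4.13 to 5.56), against 6.75% over all wt peaks (6.55 to 6.96). Among isolated sites it was 7.49% (6.34 to 8.83), and 6.03% (4.97 to 7.30) without distal chromosome 14. With the closest wt peak at least 5 kb away, it was 6.50% over the missing sites (5.73 to 7.37) and 6.33% over near sites (5.27 to 7.57), both above the 5.06% of all wt peaks (4.89 to 5.25), and 5.29% (4.30 to 6.49) over isolated sites without distal chromosome 14. The share for the closest peak also depended on the overlap rule, at 19% when 50% of both peaks was required and 10.3% with midpoints within 500 bp.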

How the data were processed

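The deposited files were 8 lists of narrow peaks with a whole-number score for each peak. According to the study's methods, the authors aligned reads with bowtie2 to mm10 with strain SNPs masked and called peaks with MACS2 at a q-value below 0.05 on reads of both alleles, merged over 24 ChIP libraries. The versions and the use of inputs are not given in the sources used here. The deposited score appears to be the -log10 q-value multiplied by 10, which is inferred from its lowest value, and served only for ranks within a list.

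Lists were compared by an overlap of at least 1 bp, with no test, since each group had 1 list and peaks are not replicates. Gene classes came from GENCODE M21 by the peak midpoint, and sequence and soft-masking from RefSeq GRCm38, with Python 3.11.15, numpy 2.4.6, pandas 2.3.3 and scipy 1.17.1. Overlap and motif steps were tested on simulated data. Expected numbers used the missing share in 50 score bins. Named sites were, by rule, the 15 highest-scoring missing sites, the 10 highest at protein-coding promoters, the 10 highest with Rad21 in wt alone, the 10 highest with SmcHD1, the 5 windows of 5 Mb with the highest share, and runs of at least 4; other examples (Ctcfl, H19, Hrh1, the printed repeats, Agap1, Dysf and Pde4d) were chosen after their values were seen. The members and lists were chosen with earlier results of these data known. Libraries of inputs and H3K27me3 were not used here.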

Additional observations from a re-analysis of the deposited data

How the results depend on the processing

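Each of 10 values was recomputed under the alternatives that applied, giving 71 values, of which 31 stayed within the 95% interval or 1.5 times the count and 40 moved; the cause was not tested. Requiring an overlap of 50% of both peaks gave 7844 missing sites, a median score percentile of 9.41, Rad21 in wt at 37.1% of missing and 78.9% of retained sites, Rad21 kept in mut or somKO at 95.5%, SmcHD1 at 2.09%, promoters 11%, the core motif 31.4% and a missing nearest neighbour 19%. With midpoints within 500 bp, Rad21 was at 30.5%, kept at 93.2%, SmcHD1 at 1.66% and a missing neighbour at 10.3%. With a gap of at least 1 kb required there were 1723 sites, at percentile 13.2, with Rad21 kept at 86.2%, intergenic sites 38.0% and the core motif 48.0%. Lists of equal CTCF length gave percentile 7.77, Rad21 at 24.5% of missing and 78.0% of retained sites, the core motif 41.6% and a missing neighbour 6.49%. With wt scores of at least 50 there were 1692 sites, with Rad21 at 26.1%, retained 77.5%, SmcHD1 0.532%, promoters 5.97%, intergenic 36.6% and the core motif 47.1%. Equal Rad21 lists gave 84.0% kept, and SmcHD1 scores of at least 50 gave 0.520%. Protein-coding genes alone gave 3.81% promoters and 46.9% intergenic, and a 5 kb promoter window 28.9% and 30.3%. The core share was 27.8% with the matrix and 26.4% within 100 bp of the midpoint. A nearest peak at least 5 kb away was missing at 6.50%, against 5.06% over all wt peaks. Leaving out distal chromosome 14, chosen after seeing the data, gave a missing neighbour at 3.98%. No paired analysis was possible because the lists merge the replicates and no result comes from a test, and for the same reason no replicate could be left out. The depth of the lists is unknown, which limits what the absence of a low-scoring peak can show.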
